A study of Homo sapiens with 33 samples.

Results

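snoRNA host genes were followed across RNA libraries of HepG2, an established human hepatocellular carcinoma line. The set holds every gene with a symbol of the form SNHG and a number, plus GAS5, ZFAS1, EPB41L4A-AS1, DANCR and TAF1D. It came to 33 of the 78932 gene identifiers measured, of which 32 are annotated as long noncoding RNA and 1, TAF1D, as protein coding. SNHG33 fits the same form in the RefSeq table and was not analysed here.

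The study collected cells at successive stages of the cell cycle to read replication timing and RNA from the same sorted cells. There were 12 sorted RNA libraries, replicates 2 and 3 of each of 6 fractions labelled G1, S1, S2, S3, S4 and G2, beside 3 unsorted (bulk) libraries, replicates 1 to 3. No treatment, gene edit or transgene is named for any group. The other 18 of the 33 samples are Repli-seq and were not analysed here. Per the labels, a stranded kit for very small amounts of total RNA was used after sorting, a stranded mRNA kit was used for bulk, and the molecule is given as nuclear RNA throughout. Sorting and kit therefore cannot be told apart in any comparison of sorted with bulk libraries. No separate cultures are named, so every p-value rests on library-to-library spread that may be technical.

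A small nucleolar RNA (snoRNA) is a short RNA that guides the chemical modification or the cutting of ribosomal and spliceosomal RNA. In vertebrates most snoRNAs are cut out of introns of a host gene, whose spliced exons are left behind as a second product. C/D box snoRNAs guide ribose methylation, H/ACA box snoRNAs guide pseudouridylation, and scaRNAs do both in Cajal bodies. The spliced RNAs of many noncoding hosts are short-lived, since ribosomes engage their small open reading frames and nonsense-mediated decay removes them. Many hosts also share with ribosomal protein genes a start of transcription at a C inside a run of pyrimidines, the 5′ terminal oligopyrimidine (TOP) form.

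The annotated starts show how far the members share that form. Of the 29 members with an entry in the RefSeq promoter table (GRCh38.p14), 8 (27.6%) start at a C that is followed by at least 4 bases that are each C or T, read on the strand of the gene. The same holds for 35 of 202 protein-coding snoRNA hosts (17.3%) and for 4.04% of all 27305 promoters in the table. When the run could begin up to 10 bases to either side of the annotated start, 18 members (62.1%), 86 protein-coding hosts (42.6%) and 33.3% of all promoters held one. The 8 were SNHG4, SNHG5, SNHG12, SNHG18, SNHG19, SNHG32, TAF1D and ZFAS1. Below stand the 6 of them with a mean of at least 1 TPM in the sorted libraries (a unit that divides reads by gene length and scales each library to an equal total), followed by GAS5 and SNHG1, the members with the highest levels, which do not have the run. Each stretch gives 10 bases before the annotated start and 20 from it on, and capitals mark the pyrimidine run that begins at the start.
TAF1D (chr11:93741476-93741505, minus strand): aatagccaacCCTTTTCTTCCgcacggttg
SNHG4 (chr5:139274091-139274120, plus strand): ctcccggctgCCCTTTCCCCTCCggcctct
SNHG12 (chr1:28581854-28581883, minus strand): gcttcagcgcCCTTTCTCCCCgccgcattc
SNHG19 (chr16:2155339-2155368, minus strand): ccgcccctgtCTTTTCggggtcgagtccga
SNHG5 (chr6:85678714-85678743, minus strand): gcacttcggtCTTTTacgtcggccttcgcg
ZFAS1 (chr20:49278632-49278661, plus strand): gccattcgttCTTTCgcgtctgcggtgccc
GAS5 (chr1:173869026-173869055, minus strand): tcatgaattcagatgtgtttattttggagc
SNHG1 (chr11:62855866-62855895, minus strand): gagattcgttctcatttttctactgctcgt
The runs of SNHG4, SNHG12 and TAF1D were the longer ones in this group, at 13, 11 and 11 bases, and those of SNHG5 and ZFAS1 the shortest, at 5 bases each. For GAS5 and SNHG1 this says only that these letters are not at the start the table gives. Only the first start listed for each gene was read. For SNHG12 and ZFAS1 that start lies inside the RefSeq span, at 28581873 where the span reaches 28582983, and at 49278642 where it begins at 49278178. Their runs therefore belong to an internal start. The files do not show which start the cells used.

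Sorted libraries held 6129026 to 18485359 recovered reads, with S4 replicate 3 the deepest and no other sorted library above 9309607, and bulk libraries held 22340963 to 24423744. Of all TPM, short noncoding genes held 75.7% ± 4.90 after sorting (SD, n = 12) but 0.4265% ± 0.0177 in the bulk libraries (SD, n = 3). Because the total is equal in every library, each other gene has less room in the sorted libraries. Comparisons with bulk are therefore given for TPM as deposited and for TPM rescaled after mitochondrial and short noncoding genes were taken out, and both carry their scale. All 6 hepatocyte markers had a mean of at least 1 TPM, with a summed level of 3390 to 10100 TPM in sorted libraries and 33600 to 33800 TPM in bulk. All 6 were called lower in sorted libraries on TPM by limma (57.8% of all genes), with a median of -2.17 against -0.99 for all genes. After rescaling 1 was called higher (47.8% of all genes) and 1 lower (10.5%), with a median of 0.22 against 1.02. Summed fibroblast markers reached at most 0.841 TPM and endothelial markers at most 3.27 TPM. Leukocyte markers summed to 1810 to 1970 TPM in bulk and 175 to 445 TPM in sorted libraries, in the latter nearly all of it LYZ (174 to 441 TPM), while CD14 stood at 0.182 to 3.01 TPM.

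Of the 33 members, 26 had a mean of at least 1 TPM over the sorted libraries and entered the tests among fractions. The other 7 were SNHG31, SNHG32, SNHG15, SNHG27, SNHG18, SNHG28 and SNHG9. SNHG31 ranged from 0.223 to 0.991 TPM and SNHG32 from 0.120 to 0.625 TPM in sorted libraries. SNHG15 rested on 0 to 8 recovered reads per sorted library, and SNHG27 on 0 to 8. SNHG18 had 0 to 14, with its highest value in S3 replicate 2. SNHG28 was above 0 in 1 library, and SNHG9 was listed at 0 in all 15.

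Summed over members, the level was 1157 ± 382 TPM for the sorted libraries (SD, n = 12) against 1267 ± 15.5 TPM for bulk (SD, n = 3). On TPM that is 0.116% of the sorted libraries and 0.127% of bulk, but on recovered reads the members held 0.775% ± 0.194 of the sorted libraries and 0.255% ± 0.00343 of bulk. The level was concentrated in few genes. GAS5 made up 32.5% ± 2.75 of the summed member TPM in sorted libraries and 10.9% ± 0.200 in bulk, and GAS5 and SNHG1 together 54.0% ± 4.43 and 20.1% ± 0.379. Spread between libraries also differed: the median coefficient of variation of the 26 members was 36.4% over the sorted libraries and 5.05% over the bulk libraries.

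**Figure D1:**
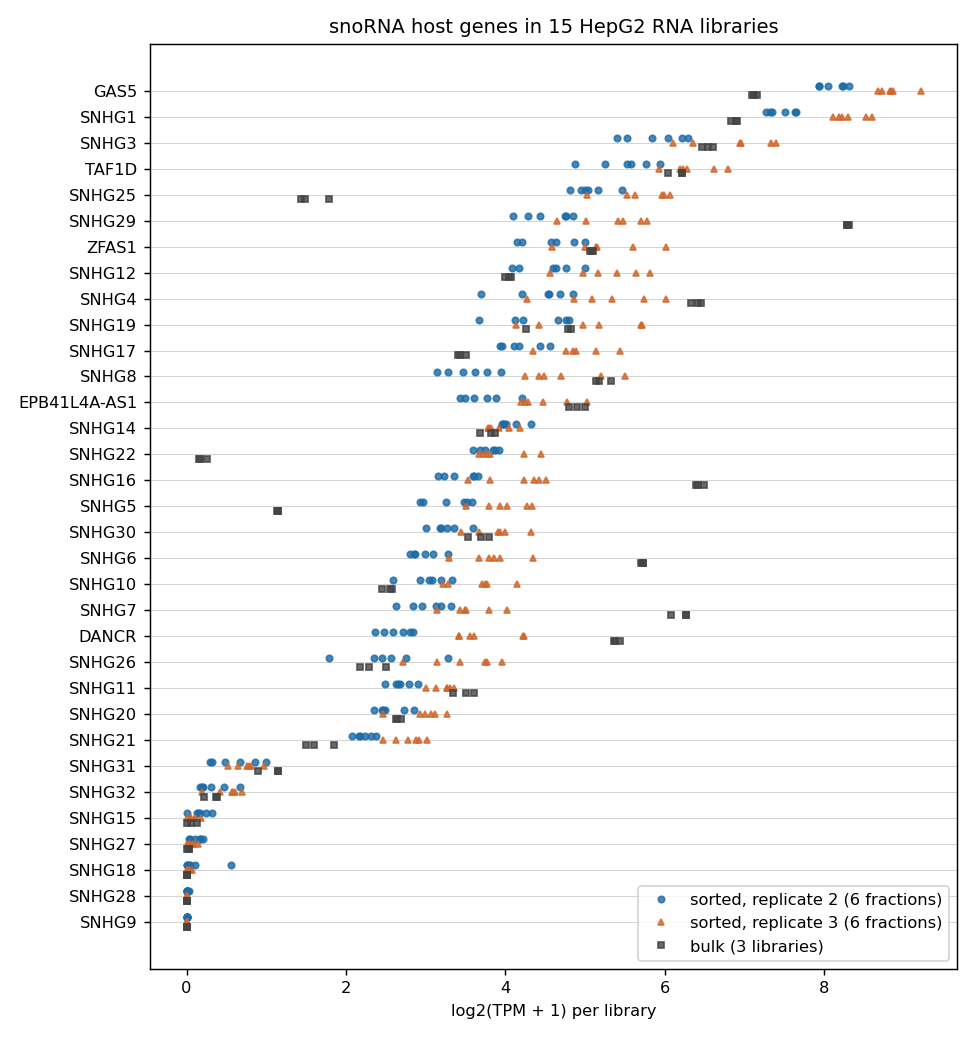
Level of each of the 33 snoRNA host genes in each library, as log2(TPM + 1), with genes ordered by their mean over the sorted libraries; circles and triangles are the 6 sorted fractions of replicates 2 and 3, and squares the 3 bulk libraries. GAS5 and SNHG1 lie above their bulk values in all 12 sorted libraries, SNHG29, SNHG16 and SNHG7 lie below theirs, and most triangles lie to the right of the circles.

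GAS5, named for its accumulation in growth-arrested cells and known as the host of a cluster of mostly C/D box snoRNAs, had the highest level in the sorted libraries. From G1 through S1 to S4 to G2, replicate 2 measured 243, 265, 243, 301, 317.5 and 299 TPM, and replicate 3 measured 453, 407, 421, 466, 456 and 591 TPM. All later values follow this order of fractions. Bulk libraries gave 138, 141 and 136 TPM. Every sorted value lay above every bulk value, and every value of replicate 3 above every value of replicate 2.

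SNHG1, host of a run of C/D box snoRNAs on chromosome 11, came second and showed the same layout. Its replicate 2 levels were 153, 162, 159, 198, 199 and 182 TPM and its replicate 3 levels 276, 289, 313, 365.5, 298 and 387.5 TPM. Bulk gave 118, 119 and 112 TPM, below all 12 sorted libraries. The lowest value of SNHG1 in replicate 3 was above its highest in replicate 2.

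SNHG3 carries the H/ACA snoRNAs SNORA73A and SNORA73B, which act in the processing of 18S ribosomal RNA, and its span overlaps RCC1. It measured 64.9, 41.4, 45.1, 77.2, 73.1 and 56.3 TPM in replicate 2 and 81.0, 67.9, 122, 123, 159.7 and 167 TPM in replicate 3. In bulk it stood at 91.95, 96.15 and 87.7 TPM, inside the sorted range. Both replicates were lowest in S1.

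TAF1D encodes a subunit of SL1, the factor that brings RNA polymerase I to ribosomal DNA, and holds 8 snoRNAs by position. Replicate 2 gave 60.2, 37.1, 28.4, 46.9, 53.5 and 44.9 TPM over the fractions, and replicate 3 gave 73.8, 59.85, 76.3, 72.3, 96.7 and 110.1 TPM. Bulk libraries gave 73.2, 73.2 and 64.9 TPM, within the sorted range. The highest library was G2 replicate 3 and the lowest S2 replicate 2.

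SNHG25, the host of SNORD104, was far above bulk. It measured 34.9, 27.1, 30.0, 43.0, 31.8 and 31.0 TPM in replicate 2 and 45.2, 31.7, 48.4, 62.6, 61.7 and 65.9 TPM in replicate 3. Bulk libraries had 2.44, 1.70 and 1.81 TPM, on 22, 14 and 15 recovered reads. No sorted library came near those values.

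SNHG29, host of SNORD49A, SNORD49B and SNORD65, was the opposite case and had the highest bulk level of all members. Sorted libraries gave 25.9, 16.1, 18.5, 27.85, 26.2 and 20.7 TPM in replicate 2 and 31.3, 24.0, 41.5, 43.6, 51.1 and 53.8 TPM in replicate 3. Bulk libraries gave 318, 310.5 and 311 TPM. The ranges are far apart.

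ZFAS1 (replicate 2: 31.0, 17.5, 16.7, 23.9, 28.2 and 22.8 TPM from G1 to G2) holds 3 SNORD12 genes by position. Its replicate 3 levels were 34.1, 23.1, 30.9, 34.4, 47.6 and 63.9 TPM, and bulk gave 32.4, 32.9 and 33.2 TPM. The sorted libraries lay on both sides of bulk. SNHG12, which holds 3 H/ACA and 1 C/D box snoRNA by position, had 23.3, 15.9, 17.0, 30.9, 26.0 and 23.8 TPM in replicate 2 and 30.5, 22.5, 34.7, 41.2, 48.9 and 55.1 TPM in replicate 3. Bulk had 14.99, 15.5 and 15.8 TPM, and all sorted libraries were above that, S1 replicate 2 by little.

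DANCR, a noncoding RNA known for holding progenitor cells undifferentiated, measured 6.17, 4.56, 4.16, 5.01, 5.97 and 5.585 TPM in replicate 2. Replicate 3 gave 11.2, 9.65, 9.735, 10.8, 17.6 and 17.9 TPM, and bulk 42.2, 40.5 and 40.2 TPM. The 3 sets of values did not overlap. EPB41L4A-AS1, transcribed opposite EPB41L4A and host of SNORA13, had 17.5, 10.3, 9.775, 11.1, 13.75 and 12.6 TPM in replicate 2 and 21.3, 17.9, 18.5, 17.3, 26.3 and 31.6 TPM in replicate 3. Its bulk values, 28.8, 31.0 and 26.8 TPM, fell at the upper end of the sorted range.

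The rest of the 26 spread over a narrower band. SNHG4 (11.99 to 63.4 TPM), SNHG17 (14.3 to 42.2) and SNHG8 (7.79 to 44.2) had sorted means between 19.1 and 30.1 TPM. SNHG16, SNHG5, SNHG6, SNHG10, SNHG11 and SNHG21 had sorted means of 13.5, 11.98, 10.2, 9.52, 6.91 and 4.81 TPM. SNHG14, the long imprinted transcript that runs antisense to UBE3A, varied least, from 12.7 to 19.1 TPM with a coefficient of variation of 12.4%, and SNHG8 most, at 58.7%. Neighbours in the order of means mostly overlapped: SNHG29, ZFAS1, SNHG12 and SNHG4 had means of 31.7, 31.2, 30.8 and 30.1 TPM with SDs of 12.7, 13.3, 12.3 and 15.03 (n = 12). In bulk the order was SNHG29, GAS5, SNHG1, SNHG3, SNHG16, SNHG4, SNHG7 and TAF1D, with means of 313, 138.5, 116.5, 91.9, 85.2, 83.3, 72.8 and 70.4 TPM.

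What a host's value counts depends on the gene model behind it. The model length could be read from the steps of the values for 31 members, and it was longer than the RefSeq span of the gene for 17 of them. GAS5 had 5626 bases against a span of 5145, SNHG1 4317 against 3908, SNHG8 6855 against 1062 and SNHG5 12720 against 1727. Such a model must reach into introns or past the ends of the RefSeq gene, so reads from a snoRNA could count for its host. The span of 19 members also overlaps another gene that is no snoRNA. How overlapping reads were assigned to genes is not stated, so host levels are levels of these gene models and not of spliced RNA alone.

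The hosted snoRNAs have values of their own. By position, with strand not checked, 155 snoRNAs and scaRNAs lie inside members, and 144 of them had an identifier here. Of the 144, 95 (66.0%) were listed at 0 in all 15 libraries, against 136 of 315 (43.2%) of those that lie inside no member. Inside members whose model length is at least 90% of the span, 35 of 38 (92.1%) were at 0, against 16 of 22 (72.7%) inside members with shorter models and 43 of 83 (51.8%) inside SNHG14. The length does not show which part of the span a model takes in. Only 2 of the 11 snoRNAs inside GAS5 had an identifier, 1 of them at 0 throughout and SNORD81 at most 2.23 TPM. Of the 7 with an identifier inside SNHG1, 6 were at 0 throughout, and SNORD27 reached 7.14 TPM on 3 reads. All 4 scaRNAs, inside SNHG10, SNHG20, SNHG21 and SNHG22, were listed at 0.

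The highest hosted snoRNAs stood far above their bulk values in every sorted library. These are given as a description, since most hosted snoRNAs could pass a filter on low values through the sorted libraries alone. SNORA73B in SNHG3 measured 20930 to 48190 TPM in sorted libraries and 37.7 to 59.3 TPM in bulk. SNORA74A and SNORA74D, the H/ACA snoRNAs of SNHG4, ranged from 1982 to 4580 and from 1442 to 2885 TPM in sorted libraries, and reached at most 8.20 and 3.80 TPM in bulk. SNORA71B in SNHG17 ranged from 666.5 to 1431 TPM against at most 16.3 TPM in bulk. SNORD6 in TAF1D ranged from 208 to 375 TPM against 41.6 to 51.8 TPM in bulk. These values are per length of a short gene, so they are not on the scale of the host values. In all, 137 of the 144 were at 0 in every bulk library, and 14 of those were above 0 in all 12 sorted libraries.

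SNHG14 holds 83 of the 144, in tandem families. Of its 48 SNORD115 copies 35 were above 0 in some library and 11 in all 12 sorted libraries, while of its 30 SNORD116 copies 4 were above 0 and 3 in all 12. Those 3, SNORD116-5, SNORD116-11 and SNORD116-17, had medians of 255, 283 and 257 TPM, and SNORD115-5 led its family with a median of 41.5 TPM. Copies of a family are near-identical, so a value for 1 copy is uncertain wherever reads were divided among copies.

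Among the sorted fractions, no member passed the test. The question here was whether host gene RNA changes as cells pass from G1 through S phase to G2. limma on log2(TPM + 1) called 0 of 26 members at an adjusted p under 0.05 for any difference among the 6 fractions, with a background of 0.0176% of 17022 genes. It called 0 for S (the mean of S1 to S4) against G1, with a background of 0.0%, 0 for G2 against G1 (background 0.00587%) and 0 for the slope over S1 to S4 (background 0.0%). At an unadjusted p under 0.05 the counts were 0, 0, 0 and 1, where all genes gave 2.76%, 5.23%, 2.76% and 2.94%, and limma's voom on recovered reads called 0 in each. Without a replicate block, standard errors of the members ranged from 0.262 to 0.735 log2 units for G2 against G1, from 0.208 to 0.581 for S against G1 and from 0.083 to 0.232 per step for the slope. In simulated data a change of 1 log2 unit was called in 4% of 50 genes for G2 against G1 and in 20% for S against G1. A change of 2 units was called in 74% and 82%. The simulated libraries shared no shift by replicate number. Their spread was set to that within fractions, which includes the difference between the replicate numbers. Changes of 1 log2 unit would therefore mostly be missed in these fits with 2 libraries per fraction and no replicate block. The sensitivity of a fit with the block was not simulated.

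For S against G1 the differences of log2(TPM + 1) ran from -0.37 to 0.20. SNHG1 (0.20 ± 0.43, SE) and SNHG30 (0.17 ± 0.35) stood at the upper end, and SNHG22 (-0.37 ± 0.21) and EPB41L4A-AS1 (-0.35 ± 0.40) at the lower. SNHG30, host of SNORD7, measured 8.11, 7.01, 9.25, 11.0, 8.65 and 8.03 TPM in replicate 2, and 11.7, 14.2, 9.86, 14.0, 18.95 and 14.9 TPM in replicate 3. SNHG22, whose span overlaps MYO5B, measured 13.7, 11.8, 11.05, 12.45, 13.4 and 14.1 TPM in replicate 2 and 20.8, 13.0, 11.7, 12.2, 17.8 and 12.6 TPM in replicate 3. Its G1 value in replicate 3 was the highest of the 12. The median over members was -0.10 against -0.20 for all genes, and 11 of 26 were above 0, with 23.9% of all genes above 0. After rescaling, SNHG31 and SNHG32 also reached a mean of 1, and 18 of 28 were above 0 with a background of 50.1% and a median of 0.08, so the sign of the median depends on the scale. Within replicate 2, 4 of 26 were above 0 on TPM (20.6% of all genes) and 17 of 28 after rescaling (48.1%), and within replicate 3, 14 of 26 (41.8%) and 15 of 28 (51.3%). Without G1 replicate 2 the median was -0.30, and without G1 replicate 3 it was 0.11.

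For G2 against G1 the largest values belonged to SNHG12 (0.43 ± 0.49, SE) and SNHG3 (0.41 ± 0.63), and the lowest to SNHG22 (-0.32 ± 0.27) and SNHG20 (-0.10 ± 0.34). SNHG20 measured 6.25, 4.10, 4.54, 5.62, 4.64 and 4.46 TPM in replicate 2 and 7.36, 4.52, 6.63, 7.67, 6.92 and 8.61 TPM in replicate 3. The members' median was 0.17, with 23 of 26 above 0 and 36.5% of all genes above 0, and after rescaling 0.25, with 25 of 28 and 47.5%. The libraries of the same replicate number gave opposite signs on TPM: within replicate 2 the median was -0.22 with 4 of 26 above 0 (18.1% of all genes), and within replicate 3 it was 0.56 with 25 of 26 (73.8%). All genes moved with them, with medians of -0.39 and 0.23. After rescaling, both numbers gave members a positive median, 0.17 with 22 of 28 above 0 (39.3% of all genes) and 0.27 with 24 of 28 (47.9%). Without G2 replicate 3 the median on TPM was -0.39 with 0 of 26 above 0, without G2 replicate 2 it was 0.77, and without G1 replicate 2 it was -0.06.

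Across S phase all 26 slopes of log2(TPM + 1) per step from S1 to S4 were above 0, with 64.9% of all genes above 0, and none passed the adjusted threshold. The median slope was 0.20 for members and 0.04 for all genes. Slopes were also mostly above 0 in the lists of genes that act with the hosts, as given further below. With the replicate number as a block, 14 of 26 slopes had an unadjusted p under 0.05 in limma (7.64% of all genes). Without the block 1 did (2.94%), and no slope passed the adjusted threshold either way. SNHG19, host of SNORD60, had the steepest slope, 0.43 ± 0.17 (SE, limma's unadjusted p = 0.0306, adjusted p = 1), and SNHG26, host of SNORD93, followed with 0.39 ± 0.19. From G1 to G2 SNHG19 measured 26.8, 11.7, 16.4, 26.0, 24.3 and 17.7 TPM in replicate 2, and 20.4, 16.6, 30.4, 35.0, 51.2 and 51.45 TPM in replicate 3, against 26.6, 18.1 and 27.3 TPM in bulk. SNHG26 measured 4.90, 2.455, 4.48, 8.73, 5.74 and 4.09 TPM in replicate 2 and 7.84, 5.56, 9.83, 12.4, 14.5 and 12.7 TPM in replicate 3. In replicate 2 both genes were highest within S phase in S3 and lower in S4, while in replicate 3 both were highest in S4. SNHG14 had the lowest slope, 0.01 ± 0.08.

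The slopes had the same sign in both replicate numbers, 25 of 26 above 0 within replicate 2 (53.4% of all genes) and 26 of 26 within replicate 3 (69.9%), with medians of 0.15 and 0.22. After rescaling 26 of 28 were above 0 (55.6% of all genes), and the median was 0.18. Within replicate 2 the rescaled count was 26 of 28 (53.5% of all genes), and within replicate 3 it was 24 of 28 (52.2%). On TPM the median moved with single libraries. Without S4 replicate 3, the deepest, it was 0.07 with 20 of 26 above 0, and without S1 replicate 2 it was 0.11. Without S4 replicate 2 it was 0.33, and without S1 replicate 3 it was 0.28.

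**Figure D2:**
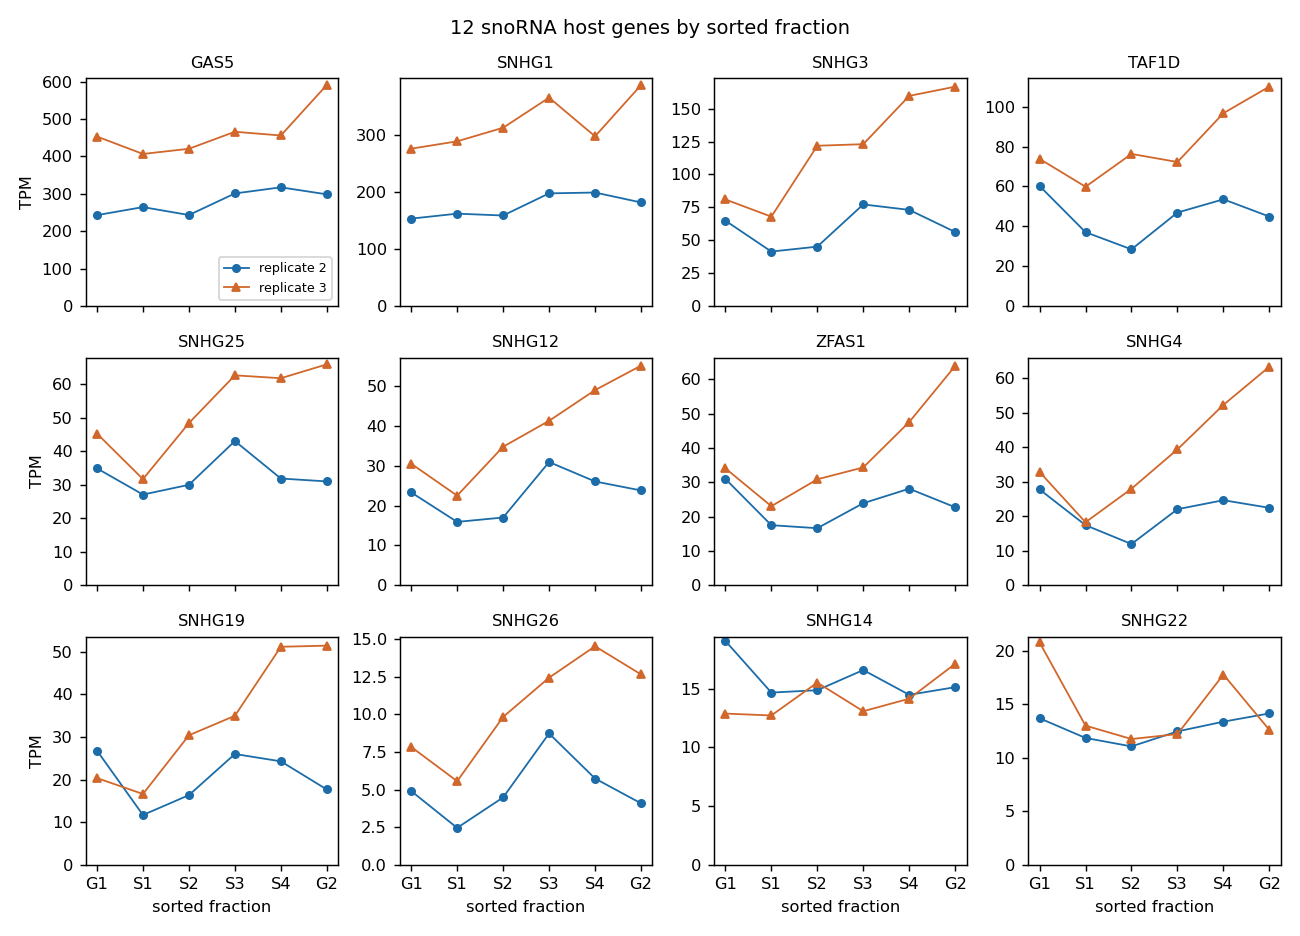
TPM of 12 snoRNA host genes in the sorted fractions, in the order G1, S1, S2, S3, S4 and G2; circles are replicate 2 and triangles replicate 3, 1 library each, and every vertical axis starts at 0. Replicate 3 lies above replicate 2 in all fractions for most genes, SNHG14 and SNHG22 cross, and in G2 replicate 3 is far above replicate 2 for SNHG3, ZFAS1 and SNHG4.

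Members also differed between the replicate numbers. In every one of the 6 fractions, 23 of the 26 had their higher value in replicate 3, which held for 19.8% of all genes. Their median difference of log2(TPM + 1), replicate 3 minus replicate 2, was 0.68, against 0.16 for all genes. The members' summed level was 845 ± 106 TPM in replicate 2 and 1470 ± 274.5 TPM in replicate 3 (SD, 6 fractions each). SNHG8 (1.13) and DANCR (1.01) had the largest median differences and GAS5 had 0.71. The 3 exceptions were SNHG19, higher in 5 of 6 fractions, SNHG22, higher in 4, and SNHG14, higher in 2 with a median of -0.11. After rescaling, 23 of 28 were higher in all 6 fractions (15.7% of all genes), with a median of 0.67 against 0.06. Composition moved along: mitochondrial genes held 8.66% to 16.7% of the TPM in replicate 2 and 2.22% to 9.97% in replicate 3, and short noncoding genes 67.0% to 77.7% and 76.4% to 82.4%. Their part in the difference was not tested beyond the rescaling. Recovered reads gave the same order, with members at 0.613% ± 0.0869 of the reads in replicate 2 and 0.937% ± 0.108 in replicate 3 (SD, 6 fractions each). The labels give no more than a number, so what the libraries of a number share is not known, and no test was made of this difference.

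**Figure D3:**
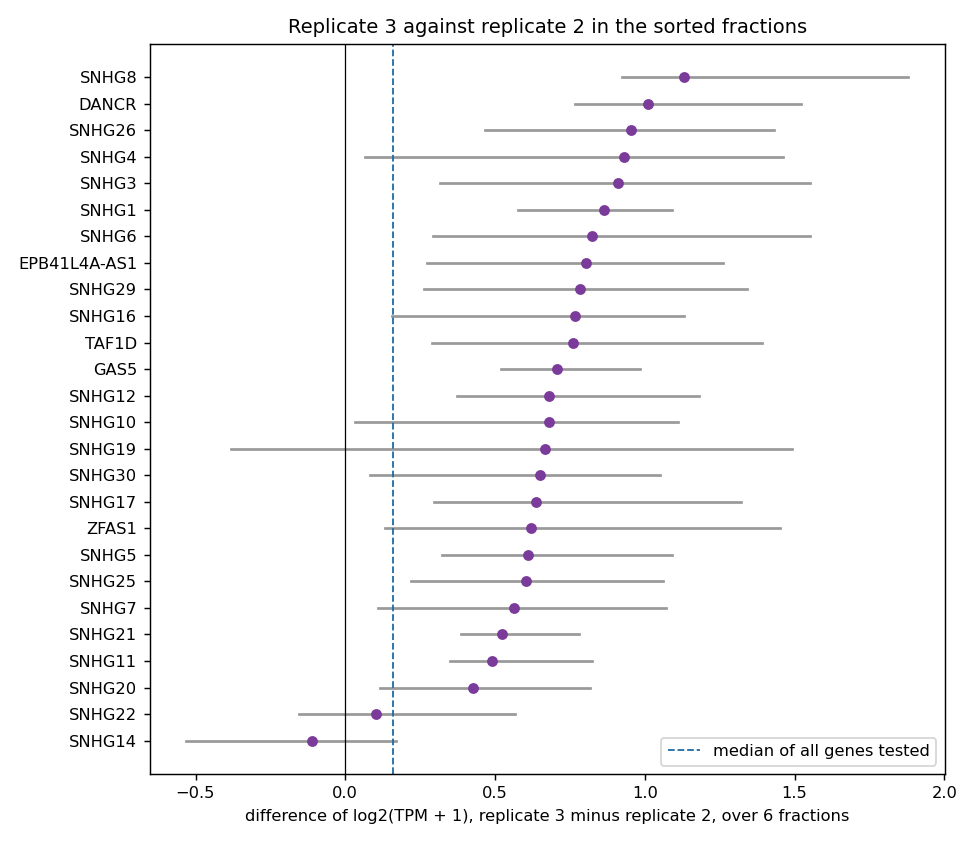
Difference of log2(TPM + 1) between replicate 3 and replicate 2 for the 26 snoRNA host genes tested; points are medians over the 6 sorted fractions, grey lines run from the lowest to the highest fraction, and the dashed line is the median of all genes tested (0.16). All members but SNHG14 have a median above 0, and the lines of SNHG19, SNHG22 and SNHG14 reach below 0.

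Most genes differed between sorted and bulk libraries, the members among them, and many members' directions turned on the scale. The members were not tested against other genes. On TPM as deposited, limma called 18 of 26 members, with a background of 80.9% of 17174 genes. Of them 9 were higher in sorted libraries (background 23.1%) and 9 were lower (background 57.8%), and the median difference was -0.02 against -0.99 for all genes. After rescaling it called 25 of 28, with a background of 58.2% of 27209 genes. There 23 were higher (background 47.8%) and 2 lower (background 10.5%), with a median of 2.21 against 1.02 for all genes. With median-ratio scaling 24 of 26 were called (background 75.3%), of which 19 were higher (background 39.9%) and 5 lower (background 35.4%). The 2 scales differ in the genes that passed the filter as well as in the scaling. Directions below are signs against 0, and the medians of all genes tested lay away from 0 on both scales. SNHG22 (bulk mean 0.145 TPM) and, after rescaling, SNHG32 (bulk mean 0.306 rescaled TPM) passed the filter only through the sorted libraries, so their place among the members called higher is a description. Other genes could pass in the same way, which bears on the backgrounds and the medians of all genes, and their number was not counted.

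The members furthest above bulk, SNHG25, SNHG22 and SNHG5, were the same on both scales. SCARNA17 begins at the annotated start of SNHG22, and SNHG25 has a model of 1483 bases for a span of 340 that holds SNORD104. Whether reads of these short RNAs count for their hosts was not tested. On rescaled TPM SNHG25 ran from 184 to 439.7 in sorted libraries, with a median of 250.7, against 2.96, 2.09 and 2.21 in bulk. SNHG25 differed by 3.82 ± 0.26 (SE, limma's adjusted p = 4.66e-08) on log2(TPM + 1) and by 6.28 ± 0.23 after rescaling, and SNHG5 by 2.48 ± 0.27 and 4.90 ± 0.26. SNHG22 had 2, 3 and 2 recovered reads in the bulk libraries against 199 to 858 in sorted libraries, and gets no fold for that reason. GAS5 ran from 1295 to 3274 rescaled TPM in sorted libraries, with a median of 2484, against 167.9, 173.6 and 165.9 in bulk. It was 1.36 ± 0.28 higher (adjusted p = 0.000727) and 3.76 ± 0.27 higher after rescaling. SNHG17, SNHG1, SNHG12, SNHG21 and SNHG10 were also called higher on both scales, with 1.10, 1.01, 0.86, 0.86 and 0.81 on log2(TPM + 1).

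At the other end SNHG29 ran from 113.5 to 306.4 rescaled TPM in sorted libraries, with a median of 184.6, against 385.8, 381.4 and 379.9 in bulk, with no overlap. It was lower by a difference of -3.36 ± 0.31 (adjusted p = 7.82e-07), and after rescaling by -1.01 ± 0.28 (adjusted p = 0.00932). SNHG7, host of SNORA17A and SNORA17B, followed with -2.92 ± 0.23 and -0.65 ± 0.22. It measured 7.76, 5.19, 6.14, 8.98, 8.12 and 6.72 TPM in replicate 2 and 10.4, 7.85, 10.3, 9.76, 12.9 and 15.2 TPM in replicate 3, against 76.2, 66.4 and 75.8 TPM in bulk. After rescaling its highest sorted value was 80.25 and its lowest bulk value 81.57. These were the only 2 called lower on both scales. SNHG16 (-2.64), SNHG6 (-2.32) and DANCR (-2.20) were called lower on TPM, but after rescaling their differences were -0.34, -0.04 and 0.05 and none was called. With median-ratio scaling each of them was called lower, with -1.26, -0.96 and -0.86, so their result depends on the scaling chosen. SNHG4, SNHG8, EPB41L4A-AS1 and SNHG11 went from called lower on TPM to called higher after rescaling, with rescaled differences of 0.77, 1.26, 1.55 and 1.72. Among members called lower on TPM, only EPB41L4A-AS1 (-0.78) and SNHG11 (-0.53) lay above the -0.99 of all genes. Among those called higher after rescaling, only SNHG4 and SNHG31 lay below the 1.02 of all genes. SNHG3, TAF1D, ZFAS1, SNHG14, SNHG19, SNHG20, SNHG26 and SNHG30 were not called on TPM and were called higher after rescaling, as were SNHG31 and SNHG32, which were tested on rescaled TPM alone. SNHG31 ran from 1.187 to 6.085 rescaled TPM in sorted libraries, with a median of 4.481, against 1.487, 1.063 and 1.481 in bulk.

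**Figure D4:**
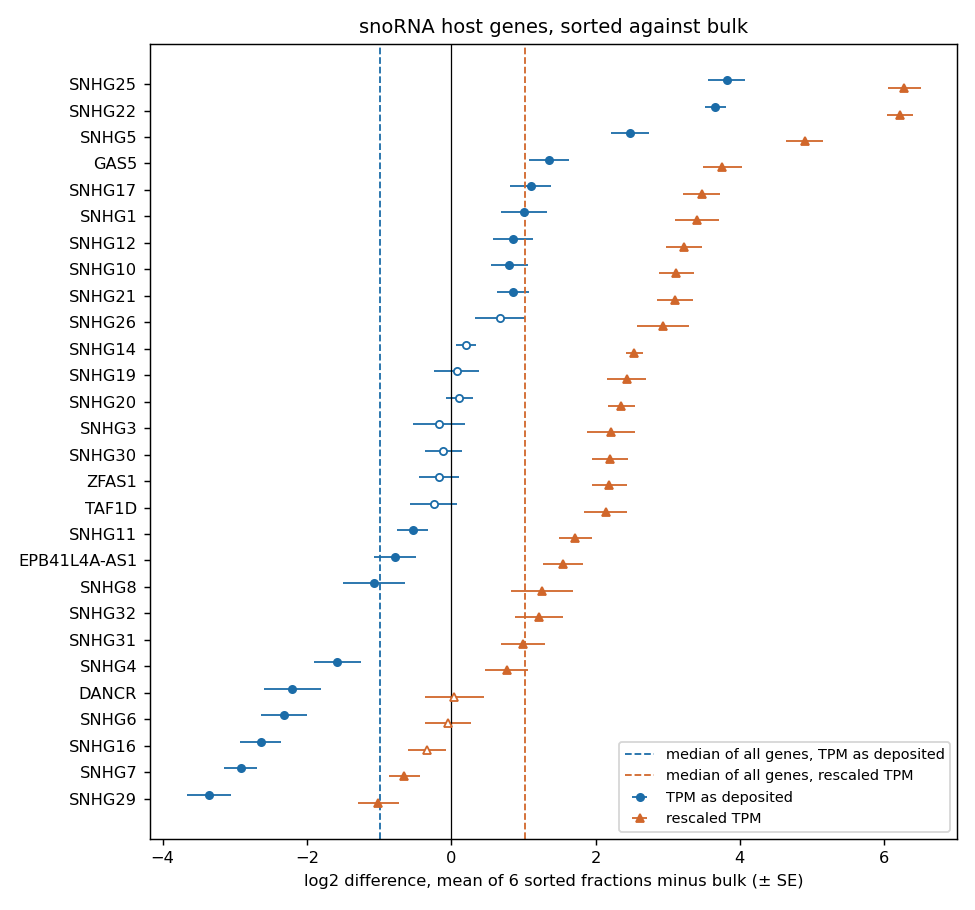
Difference between the mean of the 6 sorted fractions and bulk for each snoRNA host gene, on log2(TPM + 1) (circles) and on log2(rescaled TPM + 1) (triangles), with standard errors; filled symbols passed an adjusted p under 0.05 in limma and dashed lines mark the median of all genes tested on each scale. SNHG25, SNHG22 and SNHG5 lie furthest right on both scales, and SNHG29 and SNHG7 lie left of 0 on both.

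Genes that act with the hosts were read the same way. In none of these lists was a member called among the fractions (0 in each of the 4 comparisons, limma). Against bulk on TPM, all 12 nonsense-mediated decay factors were called lower in sorted libraries (57.8% of all genes), with a median of -1.23, below the -0.99 of all genes. After rescaling 9 of 12 were called higher (47.8% of all genes), with a median of 1.03 against 1.02. SMG5, which recruits decay enzymes to marked RNAs, differed by -1.93 ± 0.16 on TPM and by 0.44 ± 0.09 after rescaling. SMG1, the kinase that phosphorylates UPF1, differed by -0.92 ± 0.17 and 1.44 ± 0.12.

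The snoRNP core proteins, which bind the snoRNA itself, moved apart. On TPM 5 of 7 tested were called lower (57.8% of all genes) and none higher (23.1%), with a median of -2.54 against -0.99 for all genes. After rescaling 3 of 8 were called higher (47.8% of all genes) and 2 lower (10.5%), with a median of 0.11 against 1.02. NOP56, a C/D box core protein whose own introns hold snoRNAs, went from -0.61 ± 0.35 to 1.78 ± 0.31, and SNU13, which binds the kink-turn of C/D box snoRNAs, was lower on both scales, with -4.07 ± 0.11 and -1.80 ± 0.13. Of the assembly and maturation factors 14 of 15 were called lower on TPM (57.8% of all genes) and 1 higher (23.1%). After rescaling 7 were called higher (47.8% of all genes) and 2 lower (10.5%). NOLC1, a nucleolar chaperone of snoRNPs, was among the 2, with -3.37 ± 0.17 and -1.01 ± 0.13. Of the genes for SL1 and RNA polymerase I, 11 of 15 were called lower on TPM (57.8% of all genes) and 1 higher (23.1%). After rescaling 11 of 16 were called higher (47.8% of all genes) and 2 lower (10.5%). TBP, the shared TATA-binding subunit, differed by -0.96 ± 0.21 and by 1.40 ± 0.17, while TAF1D, the member of that list with snoRNAs inside, differed by -0.24 ± 0.33 and 2.14 ± 0.30.

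Protein-coding genes that hold a snoRNA by position are the nearest comparison to the noncoding hosts. Of 252 in the files, 213 were tested against bulk on TPM. There 181 were called lower (57.8% of all genes) and 11 higher (23.1%), with a median of -1.91 against -0.99 for all genes. After rescaling 103 of 221 were called higher (47.8% of all genes) and 66 lower (10.5%). Their median was 0.37, below the 1.02 of all genes, where the median of the snoRNA host genes was 2.21. The 2 medians of the snoRNA host genes therefore lay above all genes and those of the protein-coding hosts below, and the difference between these groups was not tested. Over S1 to S4 the protein-coding hosts had a median slope of 0.07 on TPM, with 170 of 212 above 0. All genes had a median slope of 0.04, with 64.9% above 0. On the same scale 12 of 12 nonsense-mediated decay factors and 15 of 15 assembly and maturation factors had slopes above 0, with medians of 0.08 each. So did 13 of 15 genes for SL1 and RNA polymerase I (median 0.14) and 6 of 7 snoRNP core proteins (0.16). Of the hepatocyte markers 0 of 6 did (-0.14). Slopes above 0 were therefore not particular to the snoRNA host genes.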

How the data were processed

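RNA-seq values of 15 HepG2 libraries were analysed. The deposited values are log2(TPM + 1), since back-transformed values add up to the same total in each library. The tests had been set for TPM and were kept. Per the submitters' processing notes, the tools were HISAT2, BWA, SAMtools, Trimmomatic and cutadapt, with hg38 as build and no role or version stated. Quantifier, annotation and strand setting: not given in the sources used here.

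Symbols were matched for 61481 of 78932 identifiers. Positions, hosted snoRNAs (strand not checked, although the same strand had been planned) and promoters come from RefSeq, GRCh38.p14. Within a library, TPM takes steps worth 1 read of a gene, and these steps gave reads (or read pairs, which the sources do not say) and model lengths for all 50310 genes detected in 3 or more libraries, at a tolerance of 0.001. The recovery and the tests were checked on simulated data.

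limma 3.58.1 in R 4.3.3 was run with its trend option on log2(TPM + 1). Genes whose mean TPM was 1 or more entered, and p-values were adjusted over all of them (Benjamini-Hochberg) at 0.05. The 12 sorted libraries shared a fit, and all 15 shared the fit against bulk. Rescaled TPM omits 37 mitochondrial and 8369 short noncoding genes. Differences on this scale understate changes of low genes.

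Members, lists and tests were chosen with earlier results of these data known. Values in every library are given for the 8 members with the highest sorted mean, for TAF1D, GAS5, ZFAS1, DANCR and EPB41L4A-AS1, and for the 2 largest rises and falls per comparison. Alternatives changed the pseudocount, filter, scaling, trend, weights, replicate term, test and libraries. Leaving out libraries after rescaling, and the other alternatives of the rescaled count, were chosen after seeing the data.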

Additional observations from a re-analysis of the deposited data

How the results depend on the processing

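The count of snoRNA host genes called stayed at 0 in each comparison among the fractions under every alternative run, including each fit without 1 library (0 to 0). Against bulk on TPM it was 18 of 26 (80.9% of all genes), and 15 to 19 without 1 library each. After rescaling it was 25 of 28 (58.2% of all genes), and 21 to 25 without 1 library each. The genes tested and the calls over all genes differed by setting, with the latter in brackets. A pseudocount of 0.1 gave 18 of 26 (13917 of 17174) and a mean TPM of at least 5 gave 17 of 25 (8947 of 9789). No filter gave 15 of 32 (14712 of 64790) and array weights 20 of 26 (15114 of 17174). Median-ratio scaling gave 24 of 26 (12940 of 17174) and voom on recovered reads 23 of 26 (13728 of 17174). Rescaling over protein-coding genes gave 24 of 28 (16489 of 30019). The summed level moved from 1157 to 7404 TPM in sorted libraries and from 1267 to 1548 TPM in bulk on rescaling, and ranged from 1088 to 1198 and from 1260 to 1275 TPM without 1 library each.

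With the replicate number as a block, 0 members were called among the fractions. Against bulk 19 of 26 were called (13619 of 17174 genes), and 25 of 28 with rescaling as well (14394 of 27209 genes). Among the fractions 14 of 26 slopes then had an unadjusted p under 0.05 (7.64% of all genes), against 1 without the block (2.94%). With block and rescaling these were 17 of 28 slopes (9.99% of all genes) and 16 of 28 for any difference (10.8%). Deviations of same-numbered libraries correlated at 0.308 to 0.379 over 15 pairs of fractions. The labels give the number and no shared culture or day, so the tests carry no block. Their standard errors therefore include the difference between the replicate numbers.

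Directions against bulk reversed for 10 members. Rescaling multiplies every kept gene of a library by the same factor. The median of all genes tested was -0.99 on TPM (17174 genes) and 1.02 after rescaling (27209 genes), so these medians also differ in the genes that passed the filter. A change of sign on rescaling is therefore not particular to these members, and no other cause was tested. Under rescaling without mitochondrial and short noncoding genes the differences were 0.045 for DANCR, 1.55 for EPB41L4A-AS1, 1.72 for SNHG11, 2.21 for SNHG3, 2.20 for SNHG30, 0.77 for SNHG4, 1.26 for SNHG8, 2.14 for TAF1D and 2.19 for ZFAS1. With the replicate block added they were 0.062, 1.54, 1.78, 2.21, 2.21, 0.78, 1.24, 2.16 and 2.18 in the same order. Rescaled over protein-coding genes they were 0.25, 1.75, 1.92, 2.42, 2.41, 0.98, 1.46, 2.34 and 2.40, and 0.16 for SNHG6. With median-ratio scaling EPB41L4A-AS1 had 0.56, SNHG11 0.71, SNHG3 1.23, SNHG30 1.16, SNHG8 0.29, TAF1D 1.15 and ZFAS1 1.19. With voom on recovered reads these 7 had 0.83, 1.05, 1.47, 1.55, 0.53, 1.40 and 1.47, and SNHG4 had 0.030. The part of read depth in the spread among the fractions was not tested.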
